A study of Mus musculus with 11 samples.

Results

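Mouse embryonic stem (ES) cells of 2 lines were compared by inDrop, a droplet method that tags each captured transcript with a unique molecular identifier (UMI). Per the labels, both lines carry plakoglobin (Jup) under the constitutive CAG promoter, and both were grown in serum with the cytokine LIF on tissue-culture plastic. The genotypes are given as PGHIGH, for high overexpression, and PGLOW, for low overexpression. The 2 libraries are called here those labelled JupHigh and JupLow. The labels do not name the parent line, the form of the transgene, the age of the cultures, or whether each line is 1 clone or a pool. Cells were the barcodes with at least 1000 UMIs and at most 0.9 detected genes per UMI. That rule kept 2153 of 4688 deposited barcodes for JupHigh and 1200 of 8513 for JupLow, 3353 of the 6967 cells in the 4 single-cell tables from plastic. These are 2 of the 11 samples of the series, which also holds wild-type single-cell libraries and bulk RNA sequencing of cells in agarose microgels. The lowest UMI number kept was 1000 and the highest left out was 999 in both tables, with 129 and 146 barcodes left out in the 100 UMIs below it and 101 and 82 kept in the 100 from it upward, so the threshold lies within a continuous range.

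Plakoglobin is a catenin. It links cadherins and desmosomal cadherins to the cytoskeleton, and it is a close relative of beta-catenin, which also carries the WNT signal to TCF factors in the nucleus. ES cells in serum and LIF move between a naive state, marked by factors such as Nanog, Klf4, Esrrb and Tfcp2l1, and states nearer to the formative and primed pluripotency of the implanting epiblast, marked by Otx2, Pou3f1 and Fgf5. The 2 states share the core factor Oct4 (Pou5f1). The series asks how plakoglobin bears on pluripotency under this metastable culture.

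Each side had 1 library, so no difference below has a replicate check and no test over samples was possible. Values are UMIs summed over the cells of a library and given on the usual counts-per-million scale (CPM), a gene's share of all UMIs of its library. Ranges in parentheses are exact 95% intervals that cover counting error only. Those of levels and ratios treat each UMI as independent, so they are too narrow for genes clustered in few cells. JupHigh had 4310792 UMIs and a median of 1902 per cell. JupLow had 2878334 UMIs and a median of 2193.5 per cell. After each cell was thinned to 1000 UMIs, the median number of detected genes was 695 and 721. Mitochondrial genes and 3 near-identical copies of them on chromosome 1 took 29.0% of the UMIs in JupHigh and 21.4% in JupLow. In both libraries the cells fell into a class with little and a class with much of this RNA, and 38.1% of JupHigh cells and 36.6% of JupLow cells had more than 30% of their UMIs from it. The libraries shared 0 barcodes.

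The targeted gene was read first. Jup (chromosome 11, 100368958 to 100397763, minus strand, GRCm38) had 206 UMIs in JupHigh, 47.8 CPM (41.5 to 54.8), and 109 in JupLow, 37.9 CPM (31.1 to 45.7). The log2 ratio of JupHigh over JupLow was 0.33 (-0.01 to 0.68), an interval that just held 0. It lay above 0 in 6 of the 9 alternatives for which it was computed, at 0.50 (0.16 to 0.85) under TMM scaling, which centres the genes, and 0.48 (0.14 to 0.83) with totals free of mitochondrial genes and their copies. In none of the 9 did the ratio reach 2-fold. In thinned cells, a Jup UMI was seen in 4.64% of JupHigh cells (3.79% to 5.62%) and 3.42% of JupLow cells (2.46% to 4.61%). Barcodes under 500 UMIs, which can hold free RNA, had 57.0 CPM in JupHigh and 49.4 CPM in JupLow. Leaving out the cells with much mitochondrial RNA gave 61.4 and 44.9 CPM, a log2 ratio of 0.45 (0.07 to 0.84). inDrop reads the end of a transcript next to its poly(A) tail, and whether the transgene carries the counted part of Jup is not given in the sources used here. The counts therefore do not check the labels, and the directions below are those of the libraries as labelled.

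Genes entered the comparison with a mean of at least 20 CPM over both libraries, which left 6406 of the 22888 genes with a UMI. The median log2 ratio over them was -0.12, and single genes are to be read against that shift. Under TMM scaling, which sets the middle of the genes to no change, the median was 0.05. A gene is called higher or lower where the ratio is at least 2-fold. Of the 186 genes examined by name, 83 were called and none of these changed sign under the alternatives that gave it a ratio, while 19 uncalled genes did, among them Uhrf1, Fn1, Ccnd1 and Meg3. Some of these alternatives, such as TMM scaling, could not turn the sign of a called gene. By the 2-fold rule 128 genes were higher in JupHigh, 2% of those compared, and 422 were lower, 6.59%, which makes 8.59% in either direction. By any amount, 37.7% were higher and 62.3% lower. These counts depend on the scaling: TMM gave 200 higher and 329 lower, with 55.5% higher and 44.5% lower by any amount, and totals free of mitochondrial genes and their copies gave 243 and 423, with 53.4% and 46.6%. The plot of the 2 libraries against each other shows both sets.

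**Figure D1:**
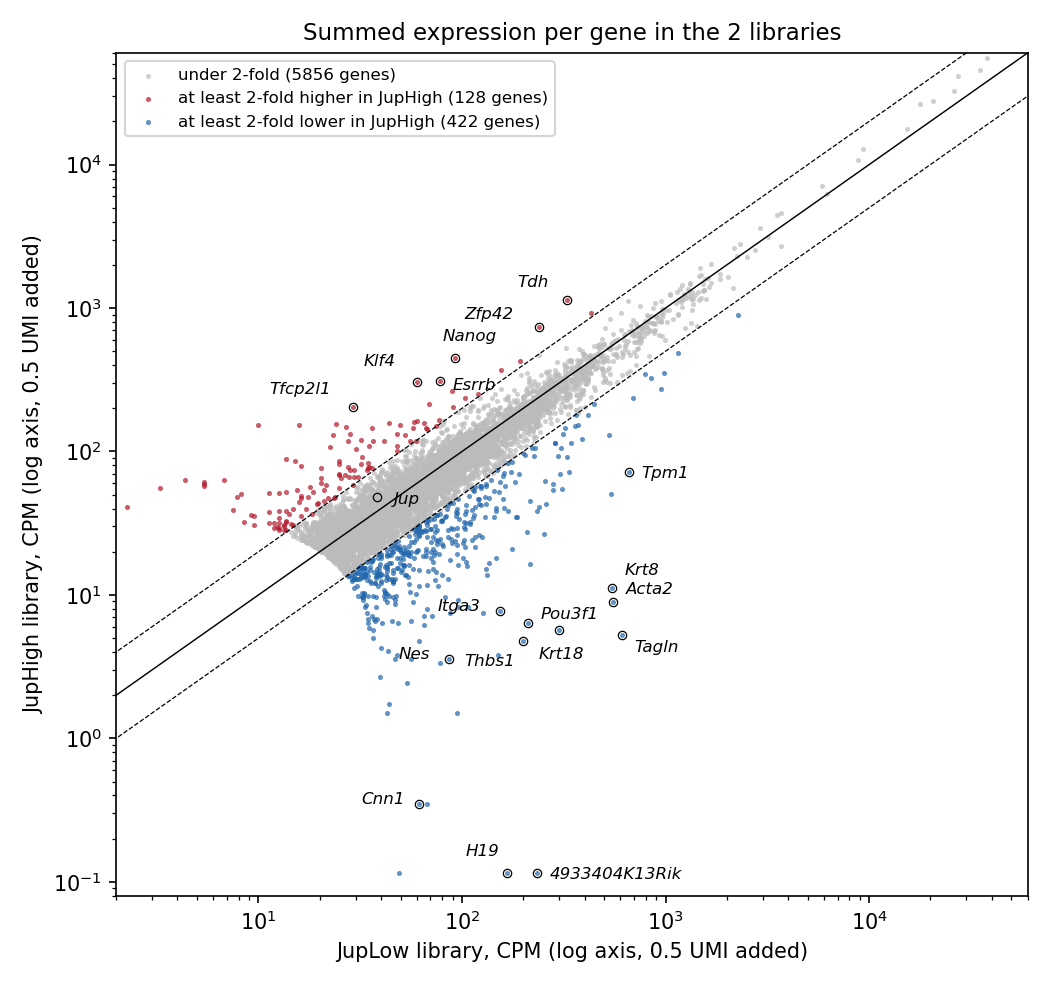
Each point is 1 of 6406 genes, with its CPM in the library labelled JupLow on the x axis and in that labelled JupHigh on the y axis, both log axes with 0.5 UMI added. The solid line is equality and the dashed lines are 2-fold; 128 genes lie above them and 422 below, with the pluripotency genes Nanog, Klf4 and Tfcp2l1 above and the contractile and keratin genes far below.

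The promoters of 3 genes are shown as examples, Zfp42 from the naive genes, and Acta2 and Myl9 from the contractile genes. Each was paired with a motif that its window holds. How many other members of those sets hold the motif was not counted. They are RefSeq windows of GRCm38.p6, from 250 bases before to 50 bases after the annotated start, 5′ to 3′ on the gene's strand. Capitals mark the octamer ATTTGCAT in Zfp42 (chr8:43306960-43307259, minus strand), the motif CATTCC, read on the other strand as GGAATG, in Acta2 (chr19:34255324-34255623, minus strand), and a CArG box in Myl9 (chr2:156775214-156775513, plus strand). The octamer is the known motif of the Oct4 family, CATTCC is that of the TEAD factors, and the CArG box is that of serum response factor.
Zfp42: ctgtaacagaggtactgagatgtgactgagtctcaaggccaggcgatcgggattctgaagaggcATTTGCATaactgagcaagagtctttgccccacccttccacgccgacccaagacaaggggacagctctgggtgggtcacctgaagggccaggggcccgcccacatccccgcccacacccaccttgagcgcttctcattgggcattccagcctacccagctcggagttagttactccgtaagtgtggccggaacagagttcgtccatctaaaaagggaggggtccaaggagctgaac
Acta2: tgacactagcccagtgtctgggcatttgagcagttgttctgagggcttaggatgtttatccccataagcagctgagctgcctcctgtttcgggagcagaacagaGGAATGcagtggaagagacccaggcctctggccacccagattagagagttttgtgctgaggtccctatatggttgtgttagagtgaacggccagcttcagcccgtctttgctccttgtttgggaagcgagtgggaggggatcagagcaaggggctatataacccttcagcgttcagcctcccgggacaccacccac
Myl9: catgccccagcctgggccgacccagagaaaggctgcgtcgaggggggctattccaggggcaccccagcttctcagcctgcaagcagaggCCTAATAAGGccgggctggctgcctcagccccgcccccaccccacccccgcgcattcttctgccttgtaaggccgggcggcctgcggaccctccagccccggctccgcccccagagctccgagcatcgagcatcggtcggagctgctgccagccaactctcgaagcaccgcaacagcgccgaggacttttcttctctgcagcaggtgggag
Both strands were searched, and the motifs do not overlap one another in these windows. The Zfp42 window also holds CATTCC once, left in lower case. The CArG box was searched in its strict form only, CC and GG around a run of A and T, and forms with a base changed were not searched. Of all 32851 RefSeq promoter windows, 1.74% held the octamer, 14.7% held CATTCC and 1.63% held a CArG box. A window was found for 4762 of the compared genes, of which 1.34%, 13.1% and 1.76% held the motifs. Among genes lower in JupHigh with a window, the CArG box was in 14 of 330 (4.24%), CATTCC in 61 (18.5%) and the octamer in 9 (2.73%). Among genes higher in JupHigh with a window, they were in 2, 14 and 2 of 86. A match is a description of the letters only.

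The naive genes were higher in JupHigh almost throughout. Of the 15 genes of the naive list, 13 had a mean of at least 20 CPM, and all 13 were higher in JupHigh. Beside 2% of all genes, 10 of them were at least 2-fold higher. Their median log2 ratio was 1.97, against -0.12 over all genes, and the summed list came to 3046 CPM (2994 to 3099) in JupHigh and 949 CPM (914 to 985) in JupLow.

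Tfcp2l1, a transcription factor downstream of LIF, differed most, with 882 UMIs and 205 CPM in JupHigh and 83 UMIs and 28.8 CPM in JupLow, a log2 ratio of 2.82 (2.50 to 3.17). Klf4, a Krüppel-like factor that LIF also induces, had 303 CPM (287 to 320) and 60.1 CPM (51.5 to 69.8), a log2 ratio of 2.33. Nanog (chromosome 6, 122707489 to 122714633) had 450 CPM (430 to 470) and 92.4 CPM (81.6 to 104), a log2 ratio of 2.28. For each of these 3 genes the intervals of the libraries lay far apart, with JupHigh more than 4-fold higher. The nuclear receptors of the naive network followed. Nr5a2 was higher by 2.22 on the log2 scale, Esrrb by 1.97 and Nr0b1 by 1.86. Tbx3, a T-box factor, was higher by 2.03, and Tcl1, a coactivator of AKT, by 1.97. Zfp42, which encodes Rex1, had 739 CPM (714 to 765) in JupHigh and 239 CPM (222 to 258) in JupLow. Klf2 showed the smallest called difference of the list, at 428 and 191 CPM and a log2 ratio of 1.16.

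Of the naive genes, 3 stayed under 2-fold: Fgf4, the ligand that drives exit from the naive state, at 0.81 (0.43 to 1.21), Dppa3 at 0.50 (0.02 to 1.02) and Klf5 at 0.37 (0.17 to 0.57). Below 20 CPM, Gbx2 had 94 UMIs in JupHigh and 35 in JupLow, and Prdm14 had 17 and 5. Barcodes under 500 UMIs held Nanog at 728 CPM in JupHigh and 129 CPM in JupLow, a difference in the same direction as in the cells.

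The core pluripotency genes differed much less, with 1 of 11 called, beside 8.59% of all genes. It was Dppa5a, an RNA-binding protein of pluripotent cells, at 920.5 CPM (892 to 950) in JupHigh and 428 CPM (404 to 453) in JupLow, a log2 ratio of 1.10. That ratio was 0.57 when the minimum was lowered to 500 UMIs. Pou5f1 had 475 CPM (455 to 496) and 398 CPM (375 to 422), a log2 ratio of 0.26 (0.15 to 0.36). Sox2, the partner of Oct4, stood at 0.76 (0.63 to 0.90) and Sall4 at 0.29. Utf1, a chromatin factor, pointed the other way, with 300.2 CPM in JupHigh and 533 CPM in JupLow, a log2 ratio of -0.83 (-0.94 to -0.72). The remaining 6 genes, which were Tdgf1, Trim28, Dppa2, L1td1, Dppa4 and Lin28a, lay between -0.33 and 0.19, and the median of the list was 0.19. The ES cell label was thus borne out in both libraries by the markers Pou5f1, Sox2, Sall4, Utf1, Dppa5a and Tdgf1, each at 207 CPM or more in both.

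The formative and primed genes were lower in JupHigh. Of 13 genes, 8 had a mean of at least 20 CPM, and 6 of them were called lower and 0 higher. Of all genes, 6.59% were called lower and 2% higher. The median log2 ratio of the list was -1.58. The summed list came to 569 CPM (547 to 592) in JupHigh and 1403 CPM (1360 to 1446) in JupLow. Dnmt3b, a member under 2-fold that is described with the DNA methylation genes, made up 350.3 and 647 CPM of these sums. Pou3f1, a POU factor of the formative epiblast, had 27 UMIs in JupHigh and 609 in JupLow, 6.26 CPM and 212 CPM, a log2 ratio of -5.05 (-5.69 to -4.52). Nes, the intermediate filament nestin, had 15 and 248 UMIs, a log2 ratio of -4.59 (-5.49 to -3.88). These genes were close to undetected in JupHigh. Otx2, which directs the exit from the naive state, had 13.2 CPM (10.01 to 17.1) and 53.9 CPM (45.7 to 63.0), a log2 ratio of -2.02. The SRY-box genes Sox4 and Sox11 stood at -1.64 and -1.38, and Dnmt3a, which the DNA methylation list also holds, at -1.51. Fgf5, the classical marker of the primed epiblast, had 0 UMIs in JupHigh and 14 in JupLow, too few for a ratio. Lef1, a TCF factor on the same list, was the exception, at 58.7 CPM in JupHigh and 33.7 CPM in JupLow, a log2 ratio of 0.80 that did not reach 2-fold. The plot of the 3 pluripotency lists shows the naive pairs separated upward and the formative pairs downward, with the core pairs between.

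**Figure D2:**
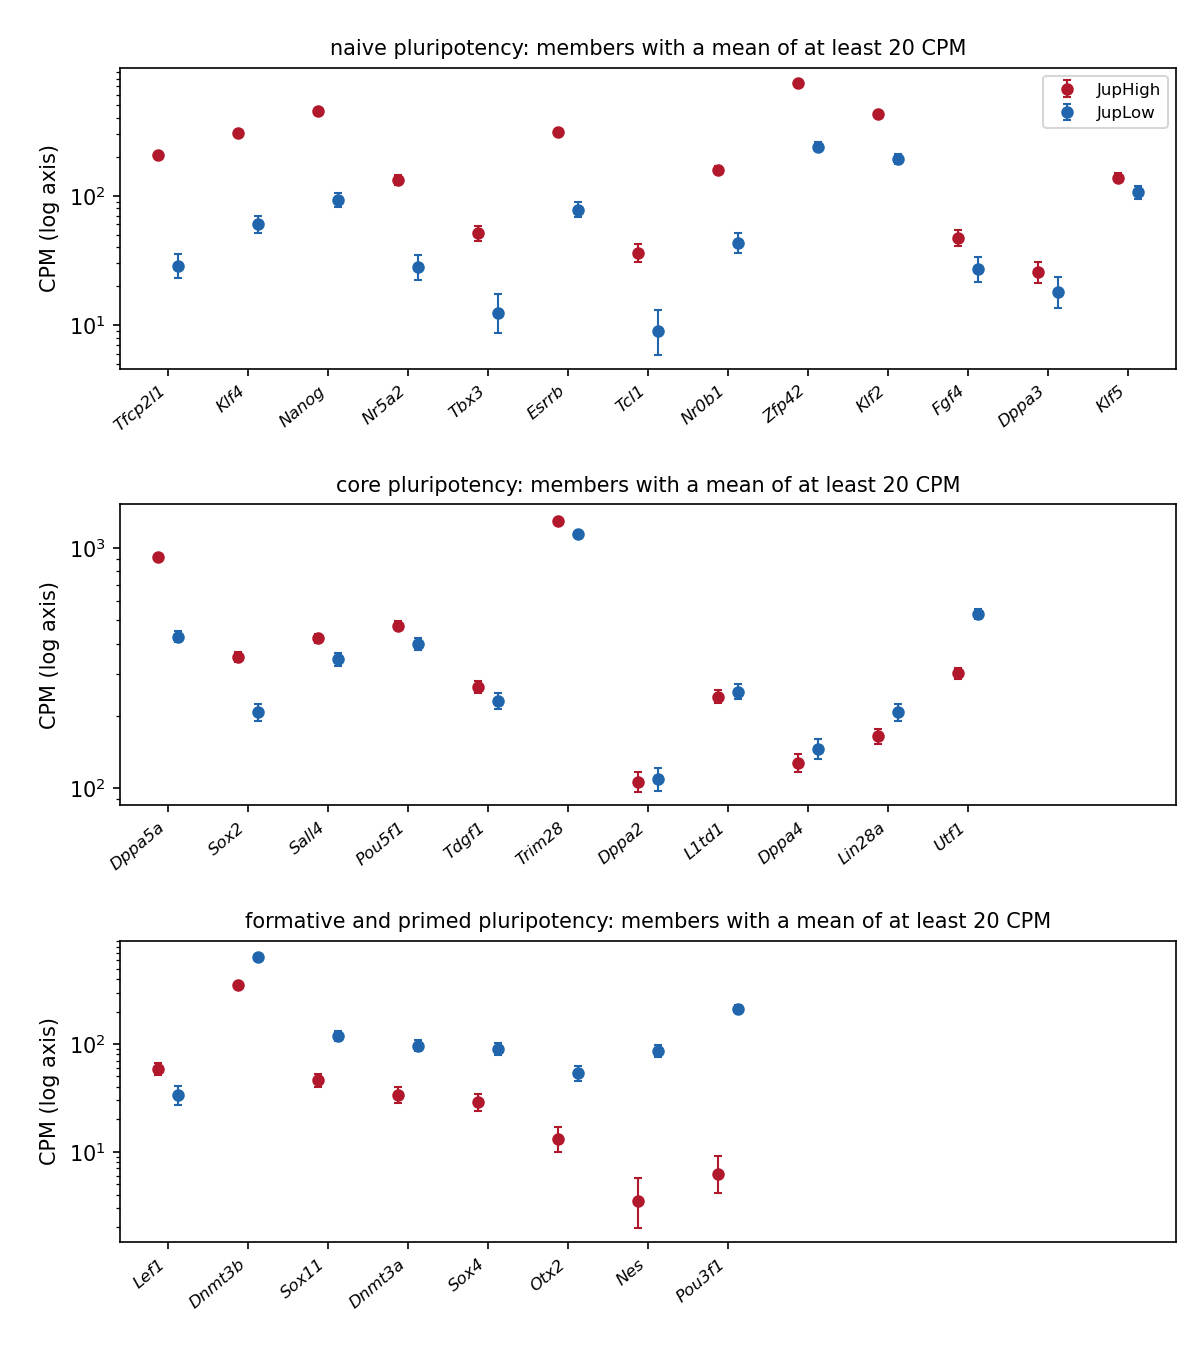
Points are the CPM of each gene in the libraries labelled JupHigh (red) and JupLow (blue) on a log axis, with exact 95% Poisson intervals, for list members with a mean of at least 20 CPM, ordered by their ratio. All 13 naive genes are higher in JupHigh, 10 of them at least 2-fold; 7 of 8 formative and primed genes are lower, 6 of them at least 2-fold.

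The DNA methylation genes were called in both directions. The de novo methyltransferase Dnmt3a had 33.9 CPM (28.6 to 39.8) in JupHigh and 96.6 CPM (85.6 to 109) in JupLow, a log2 ratio of -1.51. Its relative Dnmt3b had 350.3 and 647 CPM, a log2 ratio of -0.88 that did not reach 2-fold. The dioxygenase Tet2, which oxidises methylcytosine, had 58.2 CPM (51.2 to 65.9) and 21.2 CPM (16.2 to 27.2), a log2 ratio of 1.45. Tet1 stood at 0.53, the cofactor Dnmt3l at 0.27, the maintenance methyltransferase Dnmt1 at -0.45, and its partner Uhrf1 at -0.02 (-0.21 to 0.17). Of 7 genes, 1 was called higher and 1 lower, beside 2% and 6.59% of all genes, too few to set the list apart.

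Per cell, naive UMIs were more frequent in JupHigh. Barcodes under 500 UMIs held the naive list at 3635 CPM in JupHigh and 837 CPM in JupLow, and the formative and primed list at 602 and 964 CPM, so the shares below can include free RNA, whose part was not tested. A naive transcript was found in 88.3% of thinned JupHigh cells (86.9% to 89.7%) and 46.9% of thinned JupLow cells (44.1% to 49.8%). The unthinned shares were 95.1% and 66.2%. The median thinned cell had 3 naive UMIs in JupHigh and 0 in JupLow, and 23.3% and 2.75% of cells had at least 5. Of JupLow cells, 10.9% reached the JupHigh median, so the distributions overlapped. A formative or primed transcript, Dnmt3b included, was found in 41.2% of JupHigh cells (39.1% to 43.3%) and 65.8% of JupLow cells (63.0% to 68.4%). A core pluripotency UMI was seen in 96.4% and 94.5% of cells, and at least 5 in 48.3% and 38.1%.

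The actin and contractile genes held some of the largest differences of the comparison, toward JupLow. Of 19 genes, 18 had a mean of at least 20 CPM, and 15 of them were called lower in JupHigh and 0 higher. Of all genes, 6.59% were called lower and 2% higher. The median log2 ratio of the list was -2.18. The summed list came to 4944 CPM (4878 to 5011) in JupHigh and 10989 CPM (10869 to 11111) in JupLow. Tagln, transgelin, had 22 UMIs and 5.10 CPM in JupHigh and 1763 UMIs and 613 CPM in JupLow, a log2 ratio of -6.88 (-7.59 to -6.30). Acta2, smooth muscle actin, had 38 UMIs and 8.82 CPM against 1588 UMIs and 552 CPM, a log2 ratio of -5.95 (-6.47 to -5.50). Cnn1, the smooth muscle calponin, had 1 UMI in JupHigh and 177 in JupLow. JupHigh was thus almost without the smooth muscle forms. The tropomyosins Tpm1 and Tpm2 stood at -3.20 and -4.65, caldesmon (Cald1) at -3.73 and the myosin light chain Myl9 at -3.09. The cytoplasmic actins differed far less. Actg1 had 897 CPM and 2265 CPM, a log2 ratio of -1.34, and Actb had 2719 and 3679 CPM, a log2 ratio of -0.44 (-0.47 to -0.40).

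The desmosome and keratin genes moved in the same direction. Of 13 genes, 7 had a mean of at least 20 CPM, and 6 of these were called lower in JupHigh and 0 higher. Of all genes, 6.59% were called lower and 2% higher. The median log2 ratio of the list was -3.09. The pair of simple epithelial keratins was at the front. Krt8 had 48 UMIs and 11.1 CPM (8.21 to 14.8) in JupHigh and 1567 UMIs and 544 CPM (518 to 572) in JupLow, a log2 ratio of -5.60. Krt18, its partner in the filament, had 24 and 862 UMIs, a log2 ratio of -5.72 (-6.40 to -5.17). Dsp, desmoplakin, which ties plakoglobin to keratin filaments, had 3.25 CPM and 78.2 CPM, a log2 ratio of -4.54 (-5.48 to -3.81). Perp, a desmosomal membrane protein, stood at -3.09. Below 20 CPM, the desmosomal cadherin Dsc2 had 0 UMIs in JupHigh and 40 in JupLow, and Krt7 had 0 and 42. The other members below 20 CPM are not shown. Of all 13 genes, 3 had 0 UMIs in JupHigh and 1 had 0 in JupLow. Of the 7 genes only Pkp4, a plakophilin, was under 2-fold, at 123 and 112 CPM and a log2 ratio of 0.13 (-0.07 to 0.34).

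The classical cadherin complex differed more moderately. E-cadherin (Cdh1) had 214 CPM (200.3 to 228) in JupHigh and 443 CPM (419 to 468) in JupLow, a log2 ratio of -1.05, which fell short of 2-fold under several alternatives, reaching -0.79 at a minimum of 500 UMIs. P-cadherin (Cdh3) stood at -1.28 (-1.62 to -0.96), and at -0.88 at that minimum. Vcl, vinculin, which joins the complex to actin under load, had 60.8 CPM and 183 CPM, a log2 ratio of -1.59. Beta-catenin (Ctnnb1) had 456 CPM (436 to 476) and 574 CPM (547 to 602), a log2 ratio of -0.33, alpha-catenin (Ctnna1) stood at -0.69, and p120-catenin (Ctnnd1) at -0.27. Of 7 genes 3 were called lower and 0 higher, beside 6.59% and 2% of all genes.

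Integrins and focal adhesion genes were called lower in 6 of 10 and higher in 0, beside 6.59% and 2% of all genes. The list median was -1.57. Itga3, a laminin receptor, had 7.66 CPM (5.27 to 10.8) in JupHigh and 153 CPM (139 to 168) in JupLow, a log2 ratio of -4.30. The common beta subunit Itgb1 had 91.9 and 327 CPM, a log2 ratio of -1.83. Zyx, zyxin of focal adhesions, stood at -2.39, the integrin-linked kinase Ilk at -2.04 and Itgav at -1.97. Targets of YAP and TEAD, the transcription factors that respond to adhesion and tension, were called lower in 4 of 8 and higher in 0. The shares of all genes were again 6.59% and 2%. F3, tissue factor, stood at -2.72, Ptpn14 at -2.56 and Ccn1 at -2.07, while Amotl2, at -1.04, was under 2-fold in 8 alternatives. The remaining targets, Ajuba among them at -0.69, were all below 0 and under 2-fold, with a list median of -0.99.

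The matrix list was mixed, with 5 of 14 genes called lower in JupHigh and 2 higher, beside 6.59% and 2% of all genes. Those lower were led by Thbs1, thrombospondin, with 20 and 571 UMIs and a log2 ratio of -5.38 (-6.14 to -4.78), and by Serpinh1, the collagen chaperone, at -2.26. Sparc stood at -1.28, and the basement membrane collagens Col4a2 and Col4a1 at -1.89 and -1.30. In the other direction Lama1, a laminin chain of the early embryo, had 49.0 CPM (42.6 to 56.0) and 15.98 CPM (11.7 to 21.3), a log2 ratio of 1.60, and Spp1, osteopontin, stood at 1.19. Fn1, fibronectin, stood at -0.14 (-0.26 to -0.02). The nuclear lamina genes had 0 of 6 called in either direction, with Lmna at -0.78 and Lmnb1 at 0.05.

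Of the WNT pathway and TCF genes, those called higher in JupHigh were targets of the pathway. Sp5, a direct target of beta-catenin in ES cells, had 79.3 CPM (71.1 to 88.2) in JupHigh and 15.98 CPM (11.7 to 21.3) in JupLow, a log2 ratio of 2.30. The feedback inhibitors Notum and Axin2 stood at 1.55 (1.09 to 2.05) and 1.43 (0.91 to 2.02), the latter at 0.97 when 10 CPM was added to both libraries. Below 20 CPM, Cdx1 had 38 UMIs in JupHigh and 1 in JupLow, and T, brachyury, had 18 and 1. Tcf7l2, a TCF factor, was called lower, at -1.78 (-2.18 to -1.40). Tcf7l1, the repressor of the naive network, stood at -0.29 and Ccnd1 at -0.09 (-0.25 to 0.07), the latter above 0 under TMM scaling. Of 11 genes, 3 were called higher, beside 2% of all genes compared, and 1 lower. The list ran from -1.78 to 2.30 with a median of -0.09.

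**Figure D3:**
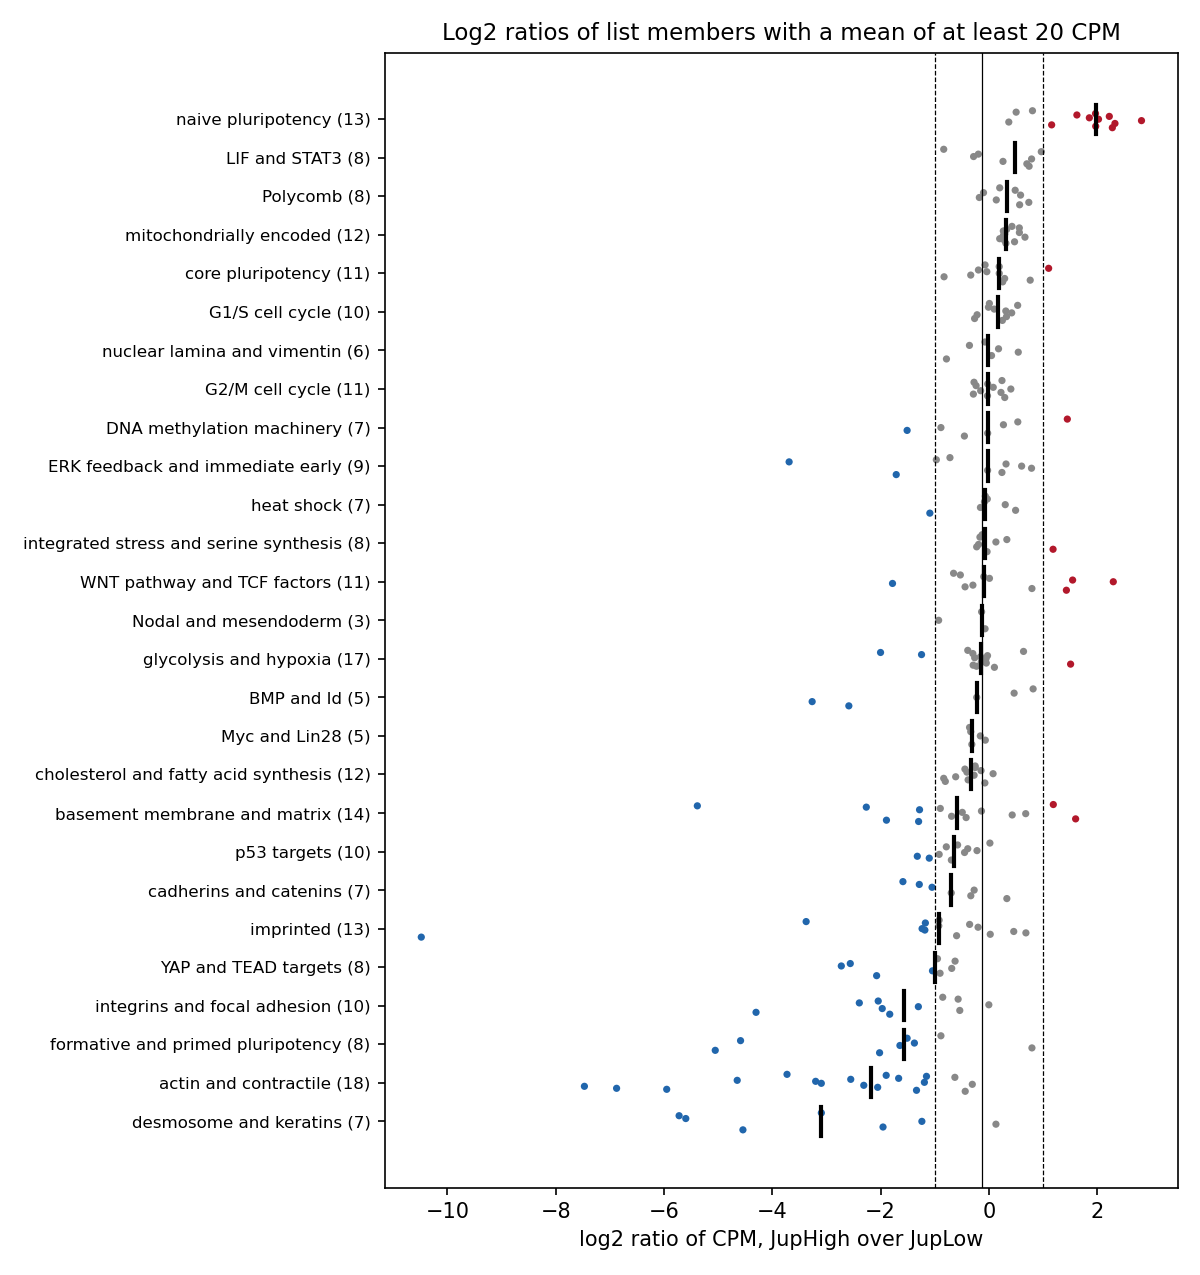
Each point is the log2 ratio of JupHigh over JupLow of 1 gene with a mean of at least 20 CPM, grouped by list (number of such genes in brackets) and coloured where at least 2-fold. Black bars are list medians, the thin solid line is the median of all 6406 genes (-0.12) and dashed lines are 2-fold; of the lists drawn, which are those with at least 3 such genes other than the ribosomal proteins, the naive list has the highest median (1.97) and the desmosome and keratin list the lowest (-3.09).

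Other signalling readouts were uneven. The BMP response genes Id1 and Id2 were called lower in JupHigh, Id1 at 43.1 CPM (37.2 to 49.8) and 260 CPM (241 to 279), a log2 ratio of -2.59, and Id2 at -3.26. Their relative Id3 stood at -0.22 and the ligand Bmp4 at 0.82 (0.55 to 1.10), both under 2-fold. Among ERK feedback genes, Dusp6, the ERK phosphatase, stood at -1.71 (-2.02 to -1.42) and Phlda1 at -3.69, while Etv5 and Etv4 stood at 0.61 and 0.79 and Spred1 at -0.97. The feedback genes thus did not move as 1 block. The LIF and STAT3 list had 0 of 8 genes called, beside 8.59% of all genes, too few genes to set the list apart. Socs3, the LIF feedback inhibitor, stood at 0.79 (0.54 to 1.04), Bcl3 at 0.97 and the receptor Lifr at 0.74. Bcl3 passed 2-fold at a minimum of 500 UMIs, at 1.03, and Jak1 at a minimum of 2000 UMIs, at -1.06. Of 10 p53 targets 2 were called lower and 0 higher: the cyclin Ccng1 at -1.32 and Mdm2, the ligase for p53, at -1.10, the latter under 2-fold in several alternatives. Beside the 6.59% of all genes called lower, 10 genes are too few to set the list apart. By any amount 9 of the 10 were lower, beside 62.3% of all genes, and the list median was -0.63.

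Metabolic genes were called in both directions. Tdh, threonine dehydrogenase, an enzyme that feeds one-carbon metabolism in mouse ES cells, had 4919 UMIs and 1141 CPM in JupHigh and 943 UMIs and 328 CPM in JupLow, a log2 ratio of 1.80 (1.70 to 1.90). The asparagine synthetase Asns stood at 1.19 and the phosphofructokinase Pfkp at 1.51. The glucose carrier Slc2a1, in contrast, had 132 CPM (121 to 143) and 312 CPM (292 to 333), a log2 ratio of -1.24, and the lactate carrier Slc16a3 stood at -2.00. Of the 17 genes of the glycolysis and hypoxia list, Pfkp was the only one called higher and Slc2a1 and Slc16a3 were those called lower. Beside the 2% and 6.59% of all genes, these are too few to set the list apart, and the list median was -0.14. The G1/S and G2/M lists had 0 of 10 and 0 of 11 genes called. Beside 8.59% of all genes, these are too few genes to set either list apart. Top2a, the cell cycle topoisomerase, stood at 0.22. The lists for Polycomb, cholesterol synthesis and Myc likewise had 0 called genes, with medians of 0.34, -0.33 and -0.31. Of 7 heat shock genes only Hspa1b was called, at -1.09, and it was under 2-fold in 5 alternatives, reaching -0.75 when 10 CPM was added.

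Of the genes with a mean of at least 100 CPM, the 12 with the largest ratios upward held 6 members of the naive list: Tfcp2l1, Klf4, Nanog, Esrrb, Nr0b1 and Zfp42. The remaining genes were Tdh, Mylpf, Epop, Kat6b, Mllt6 and Morc1, at log2 ratios of 1.44 to 1.80. Epop is a partner of Polycomb, Kat6b a histone acetyltransferase and Morc1 a germline silencing factor. The 12 largest downward included Tagln, Acta2, Krt18, Krt8, Thbs1, Pou3f1, Cald1 and Tpm1, described above. They also held S100a6, a calcium-binding protein, at 50.8 and 540 CPM, the carbonic anhydrase Car2 at a log2 ratio of -3.23, and the tubulin Tubb6 at -2.94.

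The first of the 12 was 4933404K13Rik, a long intergenic noncoding RNA (chromosome 10, 43824200 to 43833392, plus strand, GRCm38) that overlaps no other annotated gene. It had 0 UMIs in JupHigh and 675 in JupLow, 235 CPM (217 to 253). Against a floor of 3 counts in the JupHigh library it was 337-fold lower there. The wild-type libraries in 2i/LIF and in serum/LIF had 0.121 and 0 CPM, the second from a table that appears to have been counted differently. After thinning, it was seen in 20.8% of JupLow cells. The variance over mean of its UMIs per thinned cell was 1.01, where 1 is the value for random sampling from like cells, but at so few UMIs per cell the measure lies near 1 for many kinds of spread. Its level was 311 CPM in JupLow cells with at most 30% mitochondrial UMIs and 71.9 CPM in those with more. H19, the imprinted noncoding RNA, also had 0 UMIs in JupHigh, and 477 in JupLow, 238-fold lower against that floor. It was clustered, with a variance over mean of 9.36 and a UMI in 7.42% of JupLow cells. Of the 13 imprinted genes at 20 CPM, 5 were called lower and 0 higher, beside 6.59% and 2% of all genes. By any amount 10 were lower and 3 higher, up to a log2 ratio of 0.68. Those called were H19, the cell cycle inhibitor Cdkn1c at -3.37, Peg10 at -1.23, Peg3 at -1.18 and the growth factor adaptor Grb10 at -1.17. Nnat had 0 UMIs in JupHigh and 101 in JupLow, whereas Plagl1 had 132 and 22. Meg3 stood at 0.03 (-0.10 to 0.15).

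The way a difference was spread over cells varied between the groups of genes. The variance over mean was 1.20 for Nanog and 1.13 for Klf4 in JupHigh. In JupLow, at lower levels, it was 1.21 and 1.25, and 1.62 for Zfp42. Summed over the naive list it was 1.67 in JupHigh and 2.04 in JupLow. Contractile and keratin genes had higher values in JupLow, at 17.5 for Acta2, 4.02 for Tagln and 3.58 for Krt8. Summed over Acta2, Tagln, Cnn1, Myl9, Tpm1, Tpm2, Krt8 and Krt18, a set chosen after the values were seen, 60.0% of thinned JupLow cells (57.2% to 62.8%) and 8.82% of JupHigh cells (7.66% to 10.1%) had a UMI. At least 5 UMIs were found in 14.9% of JupLow cells and 0.279% of JupHigh cells, and 10% of the JupLow cells held 58.7% of these UMIs. The highest number was 109 in 1 JupLow cell. Barcodes under 500 UMIs in JupLow held the actin and contractile list at 11092 CPM and the desmosome and keratin list at 1484 CPM, near the levels of the cells, so a single such UMI does not show that a cell expressed the gene.

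**Figure D4:**
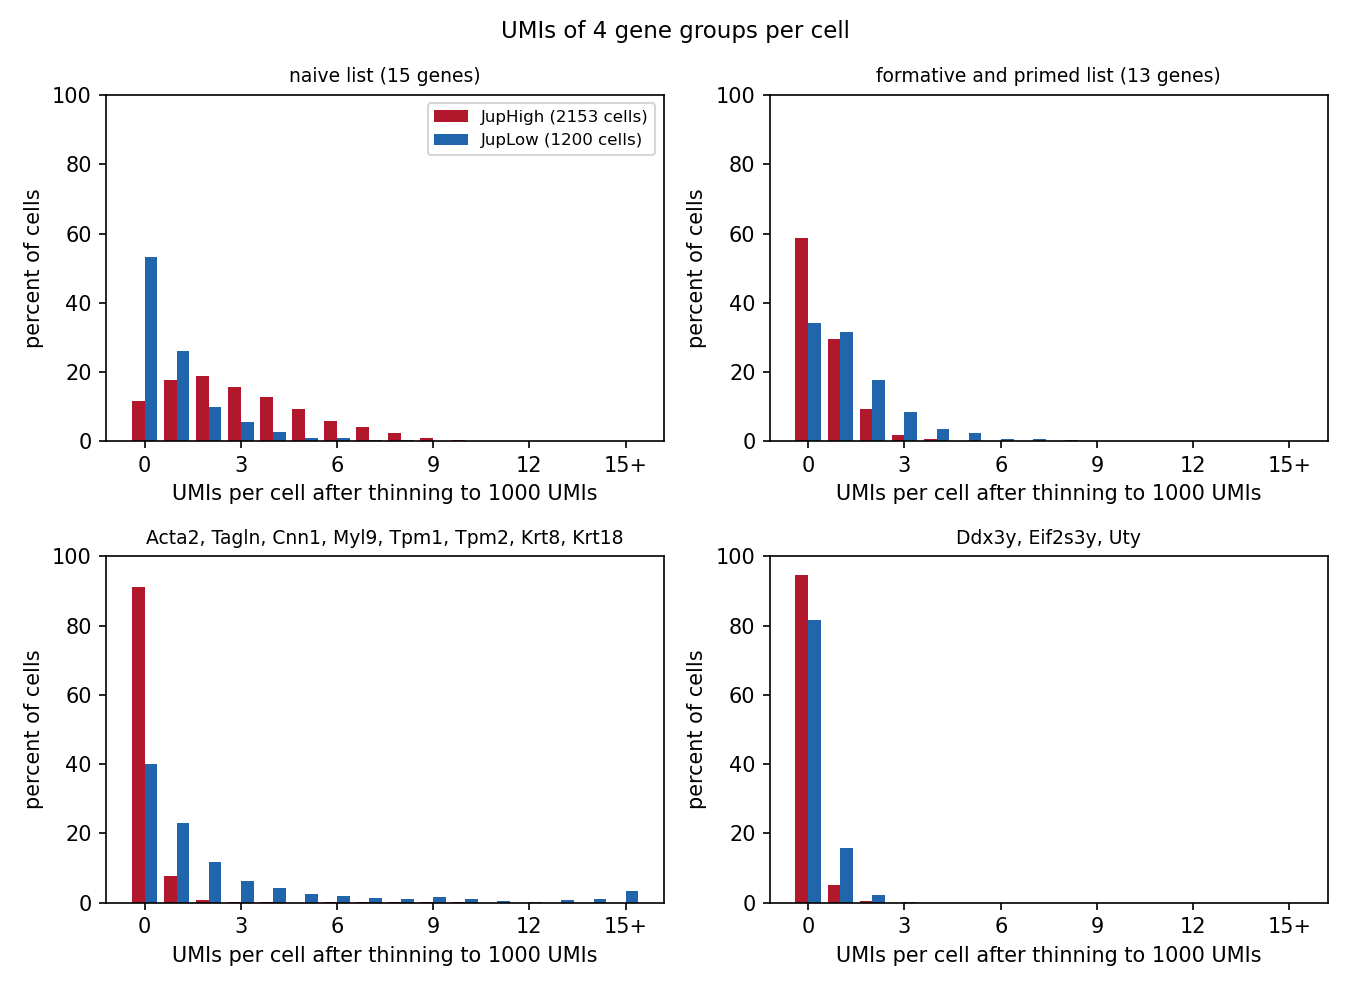
Bars give the percent of cells (y axis) with each number of UMIs (x axis, 15+ meaning 15 or more) of 4 gene groups, after thinning to 1000 UMIs, in 2153 JupHigh cells (red) and 1200 JupLow cells (blue). Naive UMIs lie higher in JupHigh, formative UMIs higher in JupLow, and contractile and keratin UMIs reach 15 or more per cell in JupLow, with a highest value of 10 in JupHigh.

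JupLow cells were then described by this sum. Of the 480 cells without such a UMI, 53.1% (48.5% to 57.7%) had a naive UMI, of the 541 with 1 to 4 it was 46.4% (42.1% to 50.7%), and of the 179 with 5 or more it was 31.8% (25.1% to 39.2%). Pou5f1 was seen in 27.9%, 31.2% and 22.9% of the same cells, and 4933404K13Rik in 17.7%, 22.4% and 24.0%. Of the 1963 JupHigh cells without a contractile or keratin UMI, 88.0% (86.5% to 89.4%) had a naive UMI. Of the 184 with 1 to 4 it was 93.5% (88.9% to 96.6%), with no fall between these ranges. Of the 6 with 5 or more it was 50% (11.8% to 88.2%), too few cells to set beside the same JupLow range. Much mitochondrial RNA was found in 40.2% of the JupHigh cells without such a UMI and 16.8% of those with 1 to 4. Over the JupLow cells the share was 46.5%, 38.4% and 4.47%, so the 3 ranges differ in this measure too. They are ranges of 1 sum and not cell types. The cells were also split by Jup. In JupHigh 92.0% (84.8% to 96.5%) of the 100 cells with a Jup UMI and 88.2% (86.7% to 89.5%) of the 2053 without had a naive UMI. In JupLow it was 36.6% (22.1% to 53.1%) of 41 and 47.3% (44.4% to 50.2%) of 1159. Much mitochondrial RNA was found in 19% of the JupHigh cells with a Jup UMI and 39.1% of those without, and in 24.4% and 37.0% in JupLow. Its part in the shares was not tested.

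In JupHigh the uneven genes were others. Gm4340 of the 2-cell-like state, a rare state of ES cells with transcripts of the early embryo, had 257 UMIs against 15 in JupLow, a log2 ratio of 3.47 (2.77 to 4.37), with a variance over mean of 11.6. The interval does not allow for such clustering. Below 20 CPM, Zscan4a had 155 and 8 UMIs, and Zscan4e had 37 and 2. After thinning, 51 JupHigh cells (2.37%, 1.77% to 3.10%) and 8 JupLow cells (0.667%, 0.288% to 1.31%) had a UMI of any Zscan4 gene, with up to 51 in 1 JupHigh cell. The Zscan4 genes are near-identical copies, so counts of each single copy are uncertain. Col4a1 was also clustered in JupHigh, with a variance over mean of 10.8, although its level there was lower, 29.9 against 73.7 CPM.

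**Figure D5:**
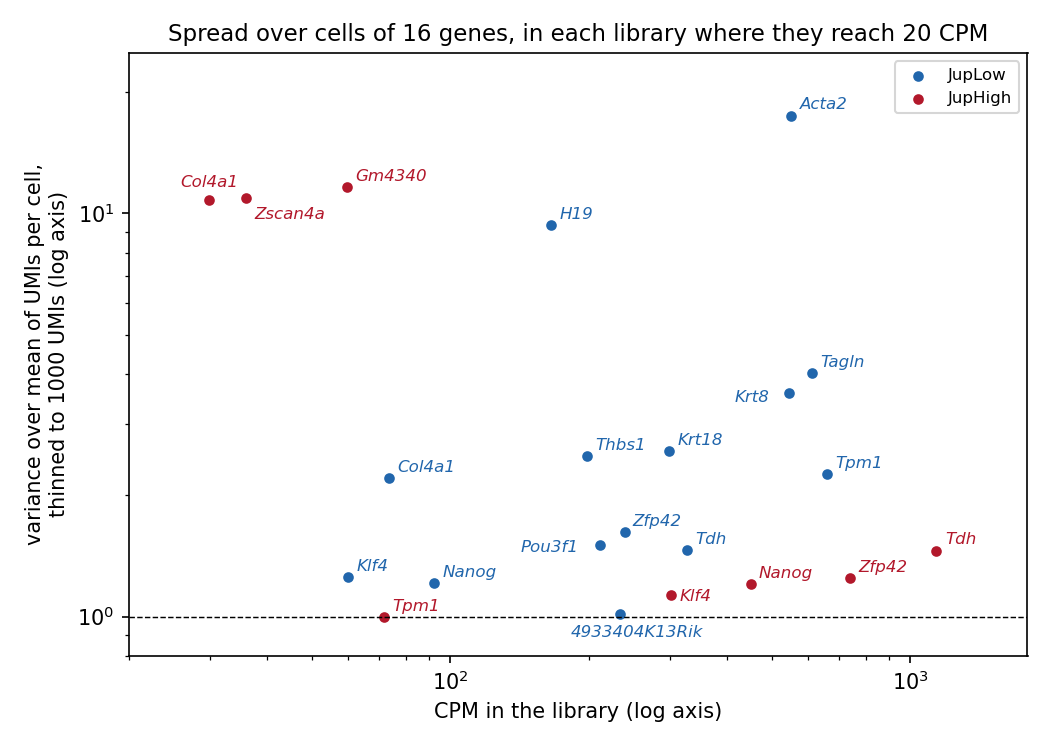
Each point is a gene in 1 library, with its CPM on the x axis and the variance over mean of its UMIs per thinned cell on the y axis, both log axes; the dashed line at 1 is random sampling from like cells. Acta2 and H19 in JupLow (blue) and Gm4340, Zscan4a and Col4a1 in JupHigh (red) stand above 9. The naive genes and 4933404K13Rik lie lower, up to 1.62 for Zfp42 in JupLow.

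Markers of other cell types moved with some of these groups. The 12 fibroblast markers summed to 13.5 CPM (10.2 to 17.4) in JupHigh and 72.3 CPM (62.8 to 82.8) in JupLow. Of them 1 passed 20 CPM, Col5a1, which was called lower in JupHigh at -2.43, Col1a1 had 1 and 38 UMIs, and Lum and Mgp were absent from both. Trophoblast markers summed to 32.0 and 71.2 CPM, and neural markers to 73.3 and 113 CPM. The 12 primitive endoderm markers had a sum of 271 CPM (256 to 287) in JupHigh and 181 CPM (166 to 197) in JupLow, a direction set by 1 gene. That gene was Apoe, the apolipoprotein, at 252 and 145 CPM and a log2 ratio of 0.80. Without it the sum was lower in JupHigh, and the factors Gata4, Gata6 and Sox17 had at most 19 UMIs in either library. The part of other cell types in the contractile and keratin difference was not tested.

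The same genes were read without the cells that held much mitochondrial RNA, an alternative chosen after the data were seen. Of the 128 genes higher in JupHigh, 125 were again at least 2-fold higher, and of the 422 lower, 373 again lower. In the 1332 JupHigh and 761 JupLow cells that stayed, Nanog had 556 and 106 CPM, Tfcp2l1 219 and 30.6 CPM, Acta2 11.4 and 747 CPM, and Pou3f1 6.62 and 266 CPM. In the cells that were left out, Acta2 had 4.40 CPM in JupHigh and 134 CPM in JupLow, and Nanog had 269 and 63.2 CPM. Both genes thus kept their direction in the left-out cells, at lower levels.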

How the data were processed

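Per the submitters' processing notes, the series used FastQC, STAR, featureCounts, DESeq2 and Scanpy with mm10/GRCm38; which tool made which table is not given in the sources used here, nor whether counting used strand. The values the authors deposited are raw UMI counts for each gene in each barcode, as judged from the values. Columns without a gene name (0.105% of UMIs in JupHigh and 0.246% in JupLow) were left out, and 10 and 12 columns that repeated a symbol were added to their namesakes. No doublet caller was run. UMIs were summed over cells and divided by the library total. Log2 ratios have 0.5 UMI added to each library, with exact conditional binomial intervals. Levels have exact Poisson and shares exact Clopper-Pearson intervals. Floors are 3 counts per library, a set number and not the upper end of an exact interval. Cells were thinned without replacement to 1000 UMIs. Of the 6406 genes, 6306 matched GENCODE M21 (GRCm38), and 2825 overlapped no other gene. Overlapping genes and near-identical copies can share reads. The step was tested on simulated counts, which were drawn independently and without clustering over cells. Python 3.11.15, numpy 2.4.6, scipy 1.17.1, pandas 2.3.3, R 4.3.3 and edgeR 4.0.16 (TMM factors only) were used.

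The genes named were Jup; the 12 largest ratios in each direction at 100 CPM or more; all members at 20 CPM or more of the pluripotency, DNA methylation and cadherin lists; and from each other list the 4 largest ratios and the 2 highest levels, with members below 20 CPM as UMI counts. A gene originally on the core pluripotency list was left out and is not reported here. Myl9, Col4a1, Spp1, Grb10, Pkp4 and the genes under other observations were named after their values were seen. The comparison, the 33 lists and the rules were chosen with earlier results of these data known. Printed in no other place, the germline list had 0 of 2 genes called, the Nodal and mesendoderm list 0 of 3, the primitive endoderm list 0 of 1, the mitochondrially encoded list 0 of 12, and the serine synthesis and stress list 1 of 8. These counts stand beside 8.59% of all genes. The bulk tables, the gel library and, beyond single values, the wild-type tables were not used here.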

Additional observations from a re-analysis of the deposited data

How the results depend on the processing

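None of the 550 called genes changed sign in the 11 alternatives that give a ratio for every gene. TMM factors, changed totals and 10 CPM added could not turn the sign of a called gene. Only the alternatives that change or reweight the cells or their counts could have done so. The number of genes at least 2-fold higher and lower in JupHigh, 128 and 422, came to 200 and 329 with TMM factors (37.8% of the calls higher, against 23.3%), 72 and 189 among genes that overlap no other gene, 24 and 66 at 100 CPM, 4432 and 4607 without a CPM filter, and 77 and 272 where the whole interval had to lie beyond 2-fold. In alternatives added after seeing the data it was 199 and 439 without cells above 30% mitochondrial UMIs, and 243 and 423 with totals free of mitochondrial genes and their copies (36.5% higher). The median of all genes was -0.05 and 0.03 in these 2. The formative and primed median was -2.98 among non-overlapping genes and -2.97 at 100 CPM, where fewer genes enter. The share of cells with a naive UMI was 90.8% in JupHigh at a minimum of 2000 UMIs, 98.3% in JupHigh and 65.1% in JupLow when thinned to 2000, 95.1% and 66.2% without thinning, and 97.0% and 52.4% without the mitochondria-rich cells. Jup ranged from 0.27 to 0.50, with an interval that held 0 in the main setting and lay above it in 6 of 9 alternatives. Of the 83 called genes among the 186 examined by name, those under 2-fold in at least 1 alternative were Amotl2, Asns, Axin2, Cdh1, Cdh3, Dppa5a, Hspa1b, Mdm2 and Peg3. Of the uncalled genes, 11 passed 2-fold in at least 1 alternative, among them Lmna, Jak1, Utf1, Bcl3, Etv4 and mt-Nd4l. List medians that lie near 0, such as those of the WNT, ERK and core pluripotency lists, changed sign in at least 1 alternative. So did the median of the LIF and STAT3 list, which was 0.48 in the main setting. No paired analysis was possible because each side has 1 library. The depth limits genes under 20 CPM, and the floor for a gene at 0 UMIs was 0.696 CPM in JupHigh and 1.04 CPM in JupLow.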

Other observations

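The genes below were named after their values were seen. Of 4 Y chromosome genes with a mean of at least 20 CPM, 3 (75%) were called lower in JupHigh, beside 6.59% of all genes. The remaining gene was under 2-fold. Ddx3y had 75 UMIs and 17.4 CPM in JupHigh and 251 UMIs and 87.2 CPM in JupLow, a log2 ratio of -2.32 (-2.72 to -1.95). Uty stood at -2.68 (-3.24 to -2.18) and Eif2s3y at -1.67 (-2.02 to -1.34). The medians of the 19 autosomes lay between -0.19 and -0.06. After thinning, 5.39% of JupHigh cells (4.47% to 6.43%) and 18.4% of JupLow cells (16.3% to 20.7%) had a UMI of Ddx3y, Uty or Eif2s3y. How the genes were spread over cells cannot be read at this depth. In the wild-type 2i/LIF library Ddx3y had 43.2 CPM. The cause was not tested.

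Beside 4933404K13Rik, other genes were nearly confined to 1 of the 2 libraries. Gm29560, a locus of the GENCODE class TEC on chromosome 3 (104667032 to 104670010, minus strand, GRCm38), had 278 UMIs in JupHigh and 1 in JupLow, and was seen in 5.53% of thinned JupHigh cells. The wild-type libraries had 10.98 CPM in 2i/LIF and 108 CPM in serum/LIF, the second from the table that appears to have been counted differently. Gbp2, an interferon-induced GTPase, had 0 UMIs in JupHigh and 140 in JupLow, 69.9-fold lower against a floor of 3 counts.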
